A study of Mus musculus with 13 samples.

Results

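A set of 9 genes used by heart muscle of the atrial type was followed in melanoma cells sorted from mouse lungs: Myl7, Myl4, Sln, Tnnt2, Tnni3, Tnnc1, Actc1, Myh6 and Nppa. They were chosen by a rule made with earlier results of these libraries known: Myl7 was selected on its difference between the host genotypes in these same libraries, and the other 8 were added because heart muscle cells use them too. All 9 were among the 22656 genes of the table. Of these, 6 reached a mean of 10 normalised counts over the libraries and so were among the 12403 genes tested, while Tnnc1, Sln and Nppa did not.

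Heart muscle cells contract by sliding thick filaments of myosin along thin filaments of actin, under the control of a troponin complex that senses calcium. Atria and ventricles use different members of several of these protein families, and atrial muscle also stores a natriuretic hormone in granules. In mice a sleeve of atrial-type heart muscle runs from the left atrium along the pulmonary veins into the lung, so that lung tissue of this species holds heart muscle cells.

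The study compared tumours grown in 2 kinds of host: knock-in mice carrying APOE2 (8 libraries) and knock-in mice carrying APOE3 (5 libraries), human alleles of the lipid carrier apolipoprotein E. Both groups received the same mouse melanoma cells, B16F10-TR-shApoe, a derivative of the B16F10 line with a hairpin RNA against Apoe, so the tumour cells carry that construct in APOE2 and APOE3 hosts alike. Per the labels' protocols, 100000 cells were given by tail vein, lungs were digested on day 15, and TO-PRO-3 low, CD45-, GFP+ cells were sorted for 3′-end RNA sequencing. The gate kept GFP+ cells, and the sources used here give no age or sex of the hosts. The series' design text counts 8 and 5 mice, which equals the number of libraries.

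Recovered reads ranged from 7080308 to 13039989 per library. The APOE2 mean was 1371946 reads above the APOE3 mean (9205501 ± 1743144, SD, n = 8, against 7833556 ± 619037, SD, n = 5), a gap with p = 0.1002 when all 1287 splits were enumerated (exact permutation, two-sided). Markers of the labelled cell type were abundant in every library, with the pigment gene Dct between 101500 and 323100 normalised counts. The 9 heart muscle genes together had between 44 and 632 reads in a library. Values of these 9 genes are therefore small counts, and the spread between libraries includes counting error.

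The label of a pulmonary vein origin was checked against genes that separate atrium from ventricle. Myl7, Myl4 and Sln, which mark atrial muscle, had reads in 11, 12 and 9 of the 13 libraries. Nppa, the atrial hormone gene, had reads in 6. The ventricular light chain genes Myl2 and Myl3 had reads in 4 and 4 libraries, with means of at most 7.19 normalised counts in either genotype. The heavy chain gene Myh7 had reads in 3 libraries. Adult mice use the heavy chain gene Myh6 in atria and ventricles, so few Myh7 reads do not separate the chambers. Nkx2-5, the transcription factor of heart muscle cells, was not analysed here, and Gata4, Tbx20, Isl1, Smyd1 and Myocd each had reads in at most 2 of the 13 libraries. Other transcription factors of the same list had reads in more libraries. Tbx3 had reads in 7 of 8 APOE2 and 5 of 5 APOE3 libraries, Gata6 in 4 and 5, and Tbx5 in 3 and 2. Hand2 had reads in 0 and 4, and Mef2c and Mef2a in all 13. The reads do not say whether they came from a vein sleeve, from the atrium or from sorted tumour cells, so the 9 genes are called heart muscle genes below.

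The proximal promoters of Myl7 and Actc1 are shown because, of the 5 other tested genes of the set, Actc1 had the values that tracked those of Myl7 most closely across libraries, and because both windows hold a CArG box, the element bound by serum response factor. Each is the 250 bases before the RefSeq transcript start, read 5′ to 3′ on the gene's strand, with the CArG box in capitals. The Myl7 window lies at chr11:5898783-5899032 (GRCm38.p6, minus strand) and its box covers bases −61 to −52 from the start. The Actc1 window lies at chr2:114052876-114053125 (minus strand) and its box covers bases −47 to −38.
Myl7: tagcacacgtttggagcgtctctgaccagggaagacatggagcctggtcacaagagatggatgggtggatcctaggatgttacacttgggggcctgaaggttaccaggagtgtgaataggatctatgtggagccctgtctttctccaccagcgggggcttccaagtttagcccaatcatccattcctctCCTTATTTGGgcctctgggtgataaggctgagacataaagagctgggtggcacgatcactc
Actc1: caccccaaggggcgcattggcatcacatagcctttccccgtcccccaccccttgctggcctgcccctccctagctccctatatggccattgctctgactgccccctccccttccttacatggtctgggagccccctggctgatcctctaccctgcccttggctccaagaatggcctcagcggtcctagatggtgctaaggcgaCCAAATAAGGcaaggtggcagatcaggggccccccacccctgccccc
Windows were found for 8 of the 9 genes, 9 windows in all since Tnnt2 had 2. A CArG box on either strand was present in 2 of these 9 windows and in 1.5% of all 32851 windows. AAGTG, a core of NKX2-5 sites, was present in the windows of Nppa, Myl7, Myl4 and Myh6, and in 40.7% of all windows. GGTGTGA, a core of TBX5 sites, was present in those of Nppa and Tnni3, and in 3.3% of all. One form of the GATA site, AGATAA, was present in 1 window of Tnnt2 and in 10.0% of all. The TATA box, searched as TATAAA, was present in that of Nppa and in 12.4% of all. Both strands were searched for every motif. No window of the 9 held the MEF2 site, which was present in 2.9% of all windows. No binding was measured, and a match describes letters only.

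Every one of the 9 genes had a lower mean in APOE2 than in APOE3 hosts, and the size of the difference varied from gene to gene. The log2 differences (APOE2 minus APOE3, on the log2(value + 1) scale) ran from −3.40 for Myl7 to −0.12 for Nppa, with a median of −1.93 over all 9 genes against 0 over all genes tested. Several were smaller by other estimates: edgeR on the recovered reads gave −1.96 for Tnni3, −1.53 for Actc1 and −0.65 for Myl4, where the log2(value + 1) scale gave −2.44, −2.09 and −1.08. At pseudocount 5 Tnni3 was −1.65, Tnnc1 −0.98 and Sln −1.19. Of the 6 tested, 1 (Myl7) passed the threshold of limma's trend test (Benjamini-Hochberg adjusted p below 0.05), and none of the 6 was called higher. Over all genes tested, 47 were called lower in APOE2 (0.379%) and 51 higher (0.411%), and 1763 had an unadjusted p below 0.05. Because Myl7 was chosen on this contrast and the others for their kinship with it, these counts describe the genes and are no evidence about them, and no p-value is given for any of the 9. In bulk RNA, fewer cells of a type and less RNA per cell cannot be told apart.

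**Figure D1:**
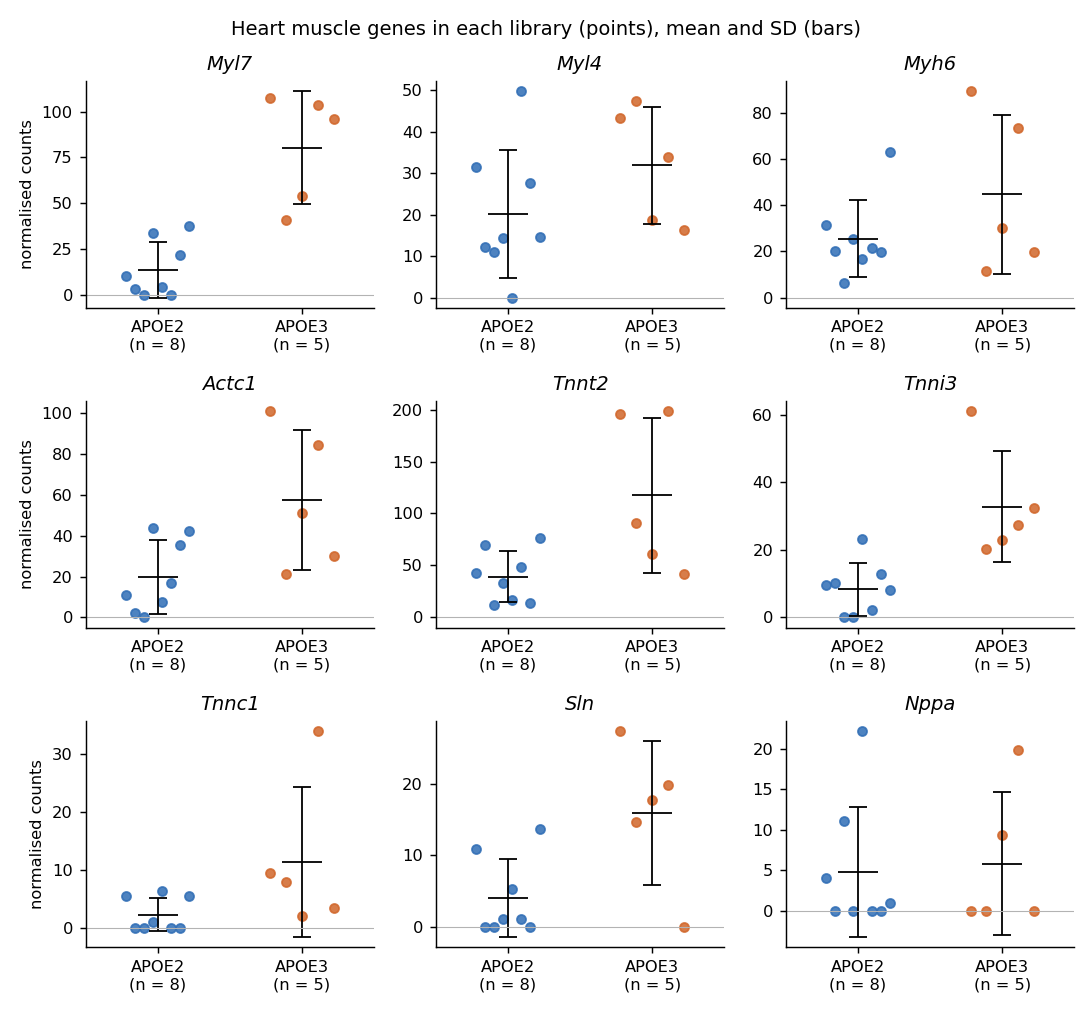
Normalised counts of the 9 heart muscle genes in each library, 1 panel per gene on a linear axis of its own, with blue points for the 8 APOE2 and orange points for the 5 APOE3 libraries, and bars for the mean and SD. In Myl7 the groups do not overlap, and in the other 8 genes they do.

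The thick filament is represented by 2 light chains and 1 heavy chain. Myl7 (ENSMUSG00000020469, chr11:5896637-5898782, minus strand) encodes the atrial regulatory light chain of myosin. Its level in APOE3 replicates 1 to 5 was 107, 40.7, 54.1, 104 and 96.0 normalised counts. In APOE2 the lowest value was 0, the median 7.22 and the highest 37.5. The highest APOE2 value was below the lowest APOE3 value, as was the case for 63 of the 12403 genes tested (0.508%). The means were 13.8 ± 15.2 (SD, n = 8) and 80.4 ± 30.7 (SD, n = 5), a ratio of 5.83, and the log2 difference was −3.40 ± 0.82 (SE). No read was seen in APOE2 replicates 3 and 6, where a count of 0 allows up to 2.76 and 3.39 normalised counts (3 reads, counting error only).

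The call of Myl7 did not hold under most settings, although its direction did. Its log2 difference was negative in all 24 alternative settings that tested it and between −3.75 and −2.99 when single libraries were left out. It was smaller at pseudocount 5 (−2.55), with edgeR (−2.52) and with DESeq2 (−2.54). It stayed past the threshold in 8 of those 24 settings, and in 2 of the 13 fits that left out a library (APOE2 replicate 4 or 8).

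Myl4 (ENSMUSG00000061086, chr11:104550663-104595753, plus strand), the atrial essential light chain, differed less. APOE3 replicates 1 to 5 had 43.2, 47.5, 18.7, 33.9 and 16.2 normalised counts. The APOE2 libraries ran from 0 through a median of 14.5 to 49.7, so the highest value of all 13 was in an APOE2 library, replicate 6. The log2 difference was −1.08 ± 0.72 (SE), and without APOE2 replicate 5, in which Myl4 had no read, it was −0.53. An exon of Gm22000 overlaps Myl4 on the other strand, and since strand use in counting is not given in the sources used here, reads of the pair cannot be told apart.

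Myh6 (ENSMUSG00000040752, chr14:54941921-54966927, minus strand) encodes the alpha heavy chain, which adult mice use in atria and ventricles. Its values in APOE3 replicates 1 to 5 were 89.5, 11.3, 30.2, 73.4 and 19.7 normalised counts. In APOE2 they were 6.44 at the lowest, 20.8 at the median and 63.1 at the highest, in replicate 8. APOE3 replicates 1 and 4 stood above every APOE2 library, and the other 3 lay inside the APOE2 range. The log2 difference of −0.62 ± 0.55 (SE) was close to its standard error. Gm49130 overlaps an exon of Myh6 on the other strand.

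On the thin filament, Actc1 (ENSMUSG00000068614, chr2:114047282-114053548, minus strand) encodes cardiac alpha actin. APOE3 replicates 1 to 5 had 101, 21.5, 51.0, 84.7 and 30.1 normalised counts, and APOE2 libraries had 0 at the lowest, 13.9 at the median and 44.0 at the highest. Replicates 1, 3 and 4 of APOE3 exceeded every APOE2 library. The means were 57.7 ± 34.4 (SD, n = 5) and 19.8 ± 18.0 (SD, n = 8), with a log2 difference of −2.09 ± 0.78 (SE).

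The troponin complex has 3 subunits, and all 3 of its heart forms had lower means in APOE2. Tnnt2 (ENSMUSG00000026414, chr1:135836354-135852260, plus strand) encodes cardiac troponin T, which ties the complex to tropomyosin. Its values in APOE3 replicates 1 to 5 were 196, 90.4, 61.4, 199 and 41.7 normalised counts, against 12.0, 37.8 and 76.0 at the lowest, median and highest of APOE2. APOE3 replicates 1, 2 and 4 were above every APOE2 library, and the log2 difference was −1.59 ± 0.48 (SE). DESeq2 on the recovered reads called Tnnt2 lower, with a log2 difference of −1.59, and did not call Myl7.

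Tnni3 (ENSMUSG00000035458, chr7:4518305-4524229, minus strand), the inhibitory subunit, had 61.1, 20.3, 22.9, 27.3 and 32.4 normalised counts in APOE3 replicates 1 to 5. In APOE2 the lowest was 0, the median 8.89 and the highest 23.2, in replicate 5. In APOE2, 7 of the 8 libraries lay below every APOE3 library. The log2 difference was −2.44 ± 0.82 (SE). An exon of Dnaaf3, a gene of cilia assembly, overlaps Tnni3 on the same strand. Reads of the shared stretch could have been assigned to either gene or to neither.

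Tnnc1 (ENSMUSG00000091898, chr14:31208312-31211729, plus strand), the calcium-binding subunit of heart and slow skeletal muscle, was below the filter. It had 9.48, 7.91, 2.08, 33.9 and 3.47 normalised counts in APOE3 replicates 1 to 5. In APOE2 it had no read in 4 of 8 libraries and 6.34 normalised counts at most. The higher APOE3 mean of 11.4 rested largely on replicate 4, with 36 of the 57 reads. The log2 difference was −1.93, and −1.42 at the smallest when single libraries were left out.

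Sln (ENSMUSG00000042045, chr9:53850164-53854560, plus strand) encodes sarcolipin, a small inhibitor of the calcium pump of the sarcoplasmic reticulum that mouse atria express. APOE3 replicates 1 to 4 had 27.4, 14.7, 17.7 and 19.8 normalised counts, and replicate 5 had none. The APOE2 libraries ran from 0 through a median of 1.08 to 13.7, so 4 of the 5 APOE3 libraries were above every APOE2 library. The log2 difference was −1.95, and −2.82 without APOE3 replicate 5.

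Nppa (ENSMUSG00000041616, chr4:148000722-148002079, plus strand) encodes the precursor of atrial natriuretic peptide, among the most abundant transcripts of atrial muscle. It had reads in 4 of 8 APOE2 and 2 of 5 APOE3 libraries. APOE3 replicates 3 and 4 had 9.37 and 19.8 normalised counts and the other three had none, while APOE2 had a median of 0.458 and a highest value of 22.2, in replicate 5. The log2 difference of −0.12 changed sign in 7 of 18 alternative settings, and was 0.58 without APOE3 replicate 4. Nppa thus had no stable direction in these libraries. Gm13054 overlaps an exon of Nppa on the other strand.

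**Figure D2:**
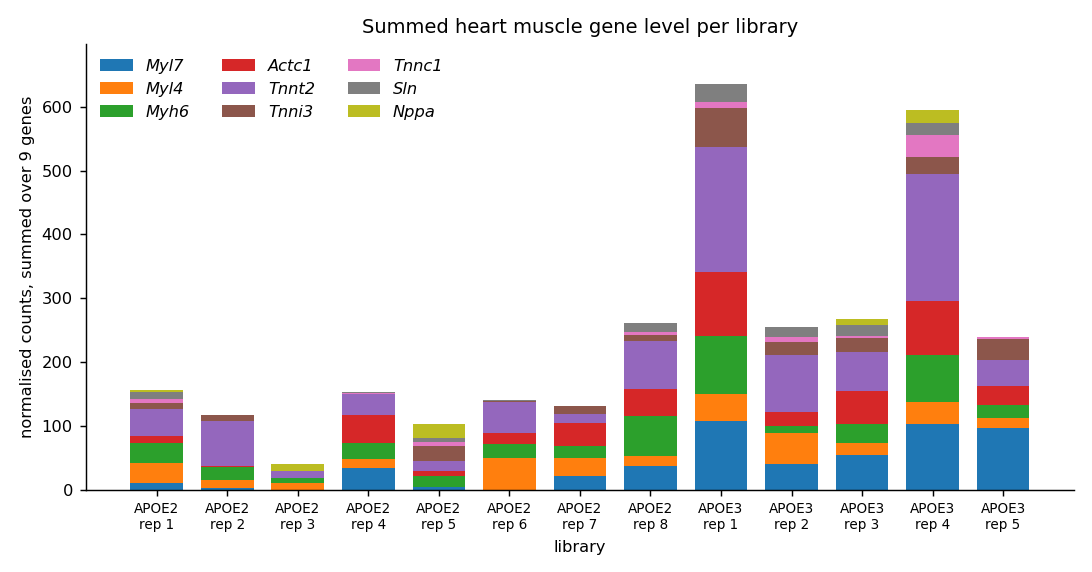
Normalised counts of the 9 genes stacked for each of the 13 libraries, 1 bar per library and 1 colour per gene. APOE3 replicates 1 and 4 reach 635 and 595, and APOE2 replicate 3 is the lowest at 40.5.

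The 9 genes were summed and divided by each library's total of normalised counts, in counts-per-million units (CPM). The level was 16.2 ± 7.29 CPM in APOE2 (SD, n = 8) and 48.2 ± 24.5 CPM in APOE3 (SD, n = 5). APOE3 replicates 1 to 5 had 77.9, 29.2, 32.7, 71.8 and 29.2 CPM. In APOE2 the lowest was 4.73, the median 16.3 and the highest 30.6. The groups overlapped through a single library, APOE2 replicate 8, which lay above APOE3 replicates 2 and 5. APOE3 replicates 1 and 4 were the highest of the 13 libraries, and APOE3 replicates 2, 3 and 5 lay close to APOE2 replicate 8. Without Myl7, the gene the choice turned on, the sum over the other 8 genes was 14.5 ± 6.06 CPM in APOE2 (SD, n = 8) and 38.4 ± 21.8 in APOE3 (SD, n = 5), and ran from 4.73 to 26.2 and from 17.5 to 64.7.

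The 9 genes did not keep 1 set of proportions. Myl7 made up 10.0% of the summed normalised counts in APOE2 and 20.2% in APOE3, whereas Myl4 made up 14.6% and 8.0%, and Myh6 18.6% and 11.3%. Tnnt2 held 28.4% and 29.5% and Actc1 14.4% and 14.5%. Myl7 was chosen for its difference between the genotypes, so its smaller share in APOE2 follows from that choice. Its larger share in APOE3 also lowers the shares of the other genes there. These shares are descriptions of reads and were not tested. The spread between libraries of 1 genotype differed from gene to gene. The coefficient of variation in APOE2 was 110% for Myl7, 93.8% for Tnni3, 90.9% for Actc1, 76.9% for Myl4, 65.4% for Myh6 and 63.5% for Tnnt2, where the median of 4123 genes with a mean between 10 and 100 was 50.2% (quartiles 36.0% and 69.0%). In APOE3 it was 38.2% for Myl7, 44.2% for Myl4, 50.2% for Tnni3, 59.7% for Actc1, 63.6% for Tnnt2 and 77.2% for Myh6, against a median of 55.3% (quartiles 40.1% and 77.1%). The 4123 genes were chosen by their mean over all 13 libraries. In APOE2, Myl7 and Tnni3 had means of 13.8 and 8.29 normalised counts and 2 libraries at 0 each, so counting error adds to their spread there.

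**Figure D3:**
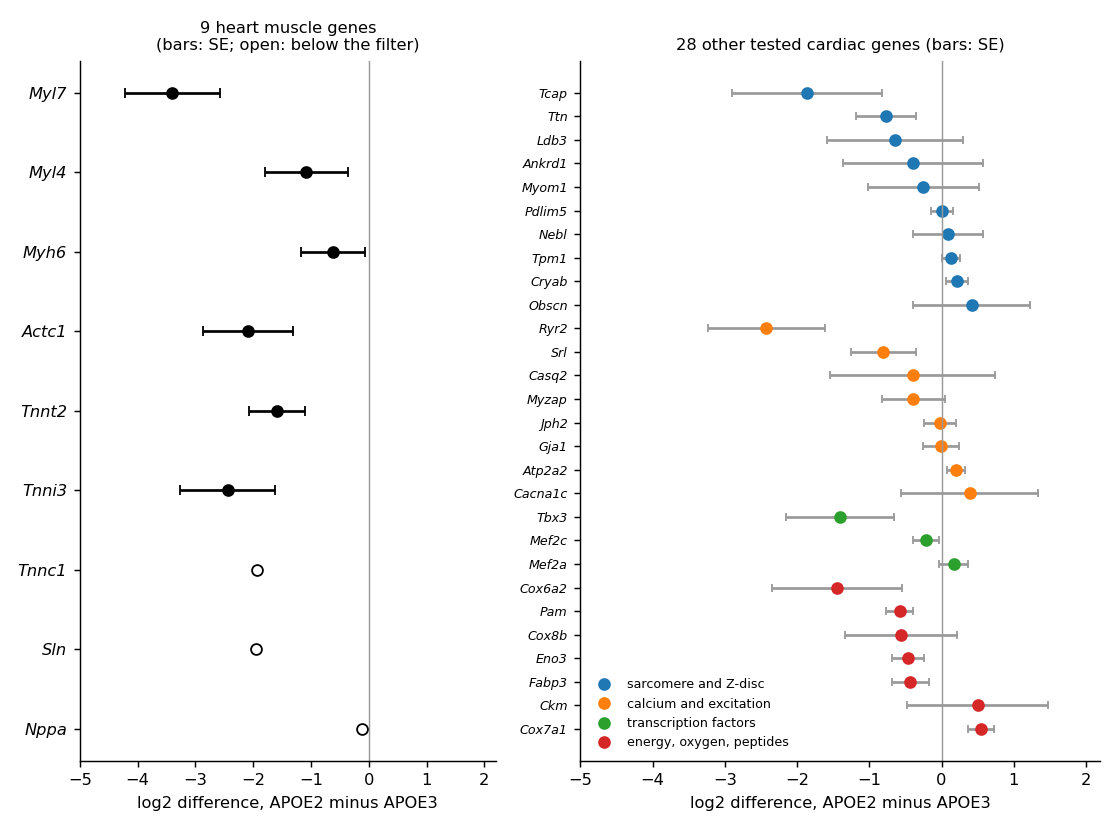
Log2 differences (APOE2 minus APOE3) of the 9 genes on the left and of 28 of the 29 other tested cardiac genes on the right, with standard errors from limma's fit. Open points are genes below the filter, which have no standard error, and the vertical line marks no difference.

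Beyond the 9 genes, 66 further genes of heart muscle were listed in 4 groups, of which 61 were in the table and 29 were tested. None of the 29 was called in either direction by limma, while 3 had an unadjusted p below 0.05 with a lower and 1 with a higher level in APOE2. That is 4 of 29, where 1763 of all 12403 genes tested had such a p, 832 of them lower in APOE2. Of the 29, 19 had negative log2 differences (49.9% over all genes tested), and the median was −0.39 against 0 over all genes tested. Among the 32 below the filter, 26 had a lower mean in APOE2, and no share over all genes below the filter was computed. The lists were written with results of these libraries known, so these counts are descriptions.

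In the group of sarcomere and Z-disc genes, 10 of 21 were tested, 5 had negative and 5 positive differences, and the median was −0.12. Ttn, the giant spring protein of the sarcomere, had 78.9 ± 38.7 normalised counts in APOE2 (SD, n = 8) and 135 ± 70.9 in APOE3 (SD, n = 5), a log2 difference of −0.77 (limma adjusted p = 0.397). The 2 with the highest levels were Cryab, a small heat shock protein, and Tpm1, a tropomyosin, with log2 differences of 0.21 (adjusted p = 0.550) and 0.13 (adjusted p = 0.689). Both were abundant in every library, Tpm1 between 3133 and 5286 normalised counts and Cryab between 5426 and 10940, far above any of the 9 heart muscle genes. Csrp3, a Z-disc protein of striated muscle, had no read in any APOE2 library and reads in 2 of 5 APOE3 libraries.

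Among genes of calcium handling and excitation, 8 of 17 were tested, 6 of them with negative differences, and the median was −0.21. Ryr2, the calcium release channel of heart muscle, had 16.1 ± 15.9 normalised counts in APOE2 (SD, n = 8) and 56.1 ± 32.8 in APOE3 (SD, n = 5). Its log2 difference of −2.43 ± 0.81 (SE) was of the size of that of Tnni3 and did not pass the threshold (adjusted p = 0.167). Atp2a2, the calcium pump, which many cell types use, had 3761 ± 315 and 3372 ± 947 normalised counts (log2 difference 0.20, adjusted p = 0.515). Jph2, which holds the calcium store against the surface membrane, had a log2 difference of −0.02 that changed sign between settings (adjusted p = 0.979).

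Of the transcription factors, 4 of 12 were tested. Mef2c, with a log2 difference of −0.21 (adjusted p = 0.650), and Mef2a, with 0.17 (adjusted p = 0.746), had the highest levels and are used by many cell types. Hand2 had no read in the APOE2 libraries and reads in 4 of 5 APOE3 libraries, with a mean of 5.89 normalised counts.

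In the group of energy, oxygen and peptide genes, 7 of 11 were tested and 5 had negative differences. Cox7a1, a cytochrome oxidase subunit of heart and muscle, was the gene with the opposite sign at an unadjusted p below 0.05: 532 ± 162 normalised counts in APOE2 (SD, n = 8) and 352 ± 48.3 in APOE3 (SD, n = 5), a log2 difference of 0.55 (adjusted p = 0.171). Eno3, the muscle enolase, had a log2 difference of −0.46 (adjusted p = 0.344). Pam, the enzyme that amidates peptides and a membrane protein of atrial granules, had a log2 difference of −0.58 (adjusted p = 0.167). Nppb, the hormone related to Nppa, was below the filter with 7.25 and 13.3 normalised counts.

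Markers of other cell types that lung or chest tissue could give were examined beside the heart muscle genes. For skeletal muscle, 10 of 15 listed genes were in the table and 2 were tested, Mylpf and Tnnt1, with log2 differences of 0.65 and 0.33 (limma adjusted p = 0.560 and 0.899) and a summed level of 4.99 to 14.6 CPM in APOE2 and 1.70 to 12.6 in APOE3. The fast troponin I gene Tnni2 had no read in APOE2 and reads in 1 APOE3 library. Both tested genes had positive differences that did not pass the threshold, and Acta1, the skeletal actin, was below the filter with 6.93 and 11.3 normalised counts.

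Smooth muscle was represented by Acta2, its actin, which had 12.2 ± 9.96 normalised counts in APOE2 (SD, n = 8) and 89.3 ± 45.8 in APOE3 (SD, n = 5). It was lower in all 8 APOE2 libraries (highest 30.5) than in any APOE3 library (lowest 49.7), with a log2 difference of −3.09 and an adjusted p of 0.0216. Acta2 was the single gene called among the 5 of 12 tested, and the median of the 5 was −0.07. Of the 5, 4 had negative differences and 1 a positive one, Myl9 (0.13, adjusted p = 0.943). Mylk and Smtn, which had the highest levels of the list, had differences of −0.01 and −0.07 (adjusted p = 0.980 and 0.940). The summed level of the whole list overlapped between the genotypes, with 405 to 499 CPM in APOE2 and 333 to 831 in APOE3, and most of it was Mylk. For 4 contractile markers picked from the list, Acta2, Myh11, Tagln and Cnn1, the sum was mostly Acta2 and had 0.589 to 3.98 CPM in APOE2 and 6.50 to 24.5 in APOE3. Myh11, Tagln and Cnn1 had reads in 5, 3 and 2 of the 8 APOE2 libraries.

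Of the lung epithelial markers 11 of 15 were tested, 6 were called lower and 2 had positive differences, with a median of −2.23. The 6 were the surfactant genes Sftpc, Sftpb, Sftpa1 and Sftpd, the protease Napsa and the phosphate carrier Slc34a2, with adjusted p between 0.00611 and 0.049. The following airway markers were not called. Scgb3a2, a club cell gene, had reads in 3 of 8 APOE2 libraries (mean 29.8 normalised counts) and in no APOE3 library (adjusted p = 0.608). Foxj1, of ciliated cells, had a log2 difference of 1.44 (adjusted p = 0.391). Scgb1a1, another club cell gene, had a mean of 157 ± 372 in APOE2 (SD, n = 8) and 29.5 ± 13.7 in APOE3 (SD, n = 5), with a log2 difference of −1.56 (adjusted p = 0.606). Sftpc, for the surfactant protein of alveolar type II cells, had 1212 ± 617 normalised counts in APOE2 (SD, n = 8) and 5949 ± 3502 in APOE3 (SD, n = 5). The summed level of the list was 75.7 to 483 CPM in APOE2 and 419 to 2555 in APOE3. All 13 tested endothelial markers had negative differences (median −1.52), and 2 were called: Calcrl, a receptor subunit (log2 difference −1.60, adjusted p = 0.0301), and Esam, a junction protein (−1.88, adjusted p = 0.029). Eng and Egfl7, at the highest levels, had −0.16 and −0.64 (adjusted p = 0.697 and 0.121). The endothelial sum was 93.1 to 140 CPM in APOE2 and 137 to 271 in APOE3.

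Of the fibroblast markers 8 of 11 were tested, all with negative differences, and Mgp was called (−1.17, adjusted p = 0.0382), while Dcn was not (−1.31, adjusted p = 0.371). The call of Mgp was kept in 2 of 13 fits that left out a library, with adjusted p from 0.0041 to 0.122, and Dcn was −0.59 without APOE3 replicate 4. Their sum was 29.2 to 83.1 CPM in APOE2 and 56.1 to 341 in APOE3. Of the leukocyte markers 6 of 14 were tested, all negative, with Lyz2 (−2.21, adjusted p = 0.0241) and Cd74 (−2.02, adjusted p = 0.0301) called and S100a8 at −0.04 (adjusted p = 0.978), and sums of 52.0 to 287 and 240 to 1481 CPM. That sum was mostly Lyz2, with means of 1162 normalised counts in APOE2 and 5288 in APOE3. Tyrobp, Fcer1g and Cd68 were not called (−0.95, −0.18 and −0.41, adjusted p = 0.644, 0.854 and 0.752), and Ptprc was below the filter. None of 10 melanoma cell markers was called, Dct and Pmel having 0.64 and 0.20 (adjusted p = 0.126 and 0.499), with a sum of 41950 to 57320 CPM in APOE2 and 34060 to 44700 in APOE3. Of the 12 marker genes called outside the heart muscle list, 3 remained called without APOE3 replicate 3, 4 without replicate 4 and 12 without replicate 1. The mean sums of the lung epithelial, endothelial, fibroblast and leukocyte lists were lower in APOE2, as was that of the heart muscle genes. The mean melanoma cell sum went the other way (47240 CPM in APOE2 and 37560 in APOE3), as did the skeletal muscle sum (8.85 and 7.27). Dct had the highest level of the melanoma list, with means of 232500 normalised counts in APOE2 and 150400 in APOE3. Of the 10 melanoma genes, 6 had positive and 4 negative log2 differences, and their median was 0.01. The mean smooth muscle sum was lower in APOE2 too (451 and 506 CPM), with overlapping libraries. That list had a median log2 difference of −0.07. Among the other cardiac lists, mean sums were higher in APOE2 for sarcomere and Z-disc genes (1616 and 1503 CPM) and for calcium handling (520 and 505). They were lower in APOE2 for transcription factors (101 and 121) and for energy, oxygen and peptide genes (148 and 171). The part of these markers in the result was not tested.

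**Figure D4:**
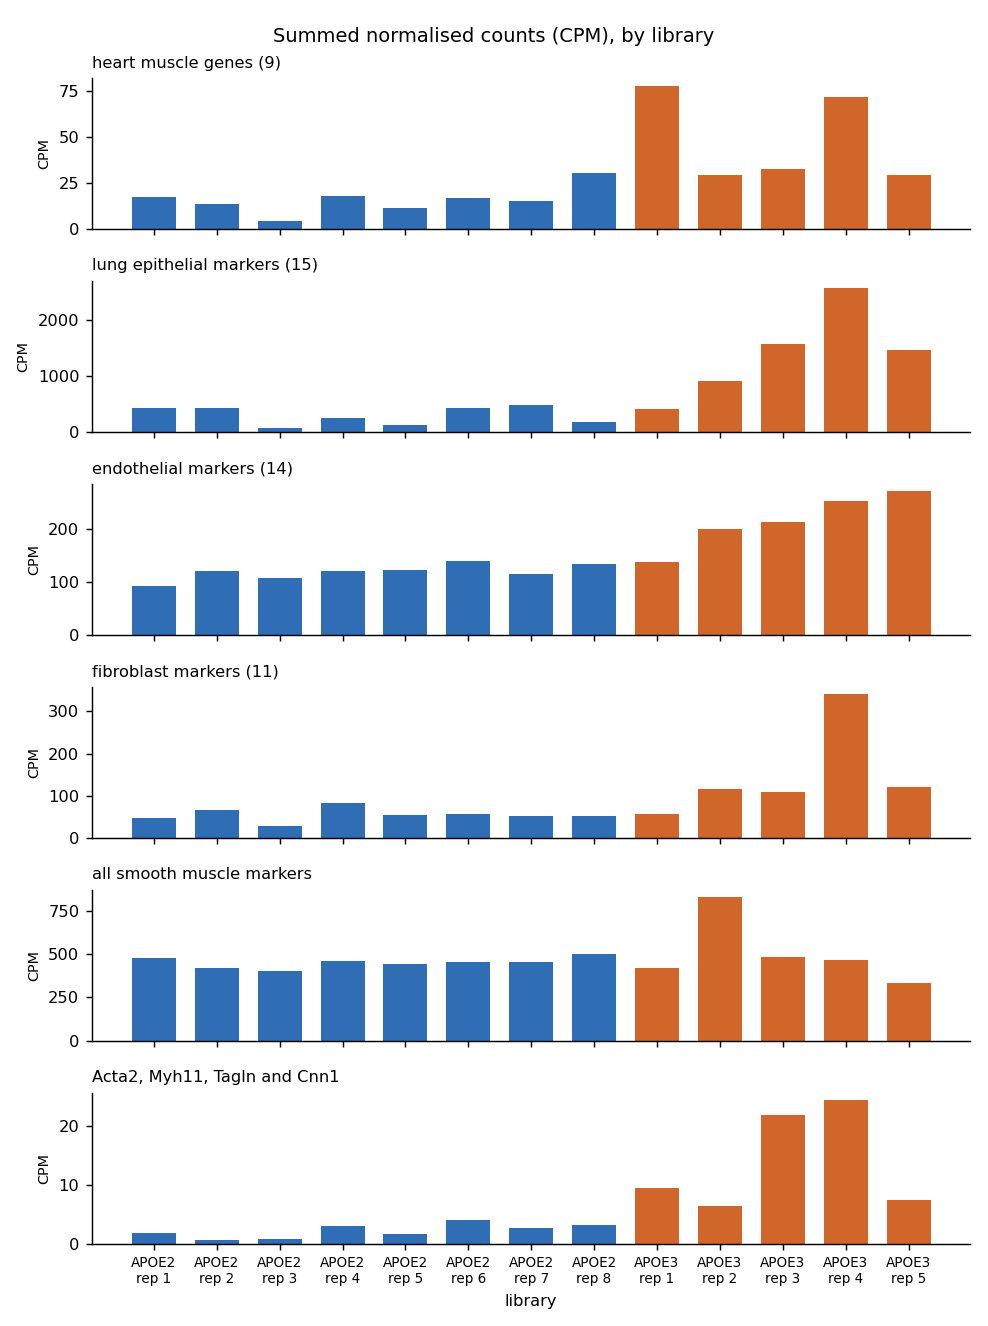
Summed normalised counts in CPM for the 9 heart muscle genes and for 5 sets of marker genes, 1 bar per library on linear axes from 0, with APOE2 in blue and APOE3 in orange. APOE3 replicate 1 has the highest heart muscle bar and a lung epithelial bar of 419, inside the APOE2 range of 75.7 to 483.

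Library by library, the heart muscle genes and the other markers did not share 1 order. APOE3 replicate 4 ranked first or second of 13 in the sums of heart muscle, lung epithelial, endothelial and fibroblast genes and of the 4 smooth muscle genes. APOE3 replicate 1 ranked 1 for the heart muscle genes, 3 for the 4 smooth muscle genes, 6 for endothelial, 8 for fibroblast and 9 for lung epithelial markers. The 4 smooth muscle genes were picked from their list. Over the whole smooth muscle list, APOE3 replicates 1 and 4 had 421.9 and 465.1 CPM, inside the APOE2 range of 405.5 to 498.6. APOE2 replicate 8, the highest APOE2 library for heart muscle genes, ranked 11 of 13 for lung epithelial and for fibroblast markers. APOE2 replicate 3 was the lowest of all 13 for heart muscle, lung epithelial and fibroblast sums.

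Likeness to Myl7 was measured across the 13 libraries as the Pearson correlation of log2(value + 1) after each genotype's mean was subtracted, so that the difference between genotypes does not enter. All these values share library depth, and Myl7 rests on 0 to 110 reads per library, so the correlations are descriptions. Of the 5 other heart muscle genes that passed the filter, Actc1 had the highest value (r = 0.74, rank 49 of 12402 genes), followed by Myh6 (r = 0.60, rank 303). Tnni3 and Tnnt2 had r = 0.27 and 0.21, and Myl4 had 0. Ryr2 and Ttn of the other cardiac lists had 0.57 and 0.46. Among markers of other lung cells, Sftpc had 0.18, a value between those of Tnnt2 and Myl4, Acta2 had −0.12 and Esam −0.09. The 5 genes most like Myl7 were Pmp22 (r = 0.92), Kat7 (0.88), Gda (0.87), Scn7a (0.86) and Ghitm (0.85). They are the highest of 12402 correlations over 13 libraries, and how high unrelated genes would reach was not computed.

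By log2 difference at pseudocount 1, Myl7 came first among the 47 genes called lower, ahead of Acta2, Sftpb and the prostaglandin carrier Slco2a1. Their differences were −3.40, −3.09, −2.74 and −2.72, steps that are smaller than the standard error of Myl7. The order did not hold by other estimates: edgeR gave −2.87 for Acta2, −2.67 for Sftpb and −2.52 for Myl7, and the ratios of means were 7.33, 6.4 and 5.83. Slco2a1 had 20.1 ± 12.0 normalised counts in APOE2 (SD, n = 8) and 110 ± 20.3 in APOE3 (SD, n = 5). Myl7 was picked for its pattern in these libraries, so its place in the order is no separate result.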

How the data were processed

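RNA from sorted cells of lung metastases was sequenced in 13 libraries (8 APOE2, 5 APOE3). The deposited values are a signal per gene: normalised counts of 22656 genes in 1 table, none below 0. STAR 2.6.0, featureCounts, DESeq2 1.28.1 and mm10 are named in the submitters' processing notes. The annotation and strand use are not given in the sources used here. Dividing a column by its smallest step made 100% of its values whole (tolerance 0.001), which gave back reads, 7080308 to 13039989 per library. Since molecules carried no identifiers, floors cover counting error only.

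Identifiers were paired with symbols and GRCm38 coordinates through GENCODE M21 (22649 matched, 7 did not), and promoters come from RefSeq. Groups follow the genotype in the labels. log2(value + 1) was compared with limma 3.58.1 (trend, two-sided, Benjamini-Hochberg over 12403 genes with a mean of at least 10, threshold 0.05) in R 4.3.3, so the size of a fold change of a low gene depends on the pseudocount, and libraries at 0 weigh heavily in it. P-values measure the spread between libraries. Read totals were compared by exact permutation. Fits were tested on simulated data with the same dispersion for every gene, so that test does not vouch for genes with a larger spread. Alternatives were pseudocounts of 0.5 and 5, equal totals, TMM, no filter, a minimum of 50, each library left out, replicate blocks, limma without trend or with a robust prior, and tests of the recovered reads (edgeR 4.0.16 and DESeq2 1.42.0). A fit of replicates 1 to 5 without a block was chosen after seeing the data.

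The 9 genes and all 11 other lists were chosen with earlier results of these data known. Named genes were the 9, those called in each other list and its 2 with the highest level, the 5 most like Myl7 and its 3 neighbours by log2 difference. Ttn, Ryr2, Csrp3, Hand2, Pam, Nppb, Tnni2, Scgb3a2, Foxj1, Scgb1a1 and the genes of the check on the label were named after their values were seen. The same holds for Myl9, Tyrobp, Fcer1g, Cd68 and Ptprc. Acta1, and Myh11, Tagln and Cnn1 of the sum with Acta2, also fall outside the rule for named genes. Among the listed genes, 1 is part of the counts but is not reported by itself.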

Additional observations from a re-analysis of the deposited data

Results flagged for a closer look

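In 22 screens for a library far from the others of its genotype (the 9 genes, their sum and the read total in each group), 3 stood apart, where chance gives about 1 in 20, or 1.1. Myh6 had 63.1 normalised counts in APOE2 replicate 8, far above the other 7 libraries of that group, in the library that also had the highest APOE2 sum of heart muscle genes. Tnnc1 had 33.9 normalised counts in APOE3 replicate 4, above the other 4. The total of 13039989 reads in APOE2 replicate 1 was the highest of its group.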

How the results depend on the processing

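Main counts of genes called lower and higher in APOE2 were 47 and 51. Lower calls numbered 73 at pseudocount 5, 4 with no filter, 0 without the trend, 77 with edgeR and 158 with DESeq2. Higher calls numbered 5 with no filter, 0 without the trend and 153 with DESeq2. Leaving out single libraries gave 4 to 97 lower and 5 to 131 higher calls: without APOE3 replicate 3 they were 4 and 5, and without APOE3 replicate 1 they were 97 and 131. The number of heart muscle genes called lower was 1, and 0 at pseudocount 0.5, with no filter, at a minimum mean of 50 (where Tnnt2 alone was tested), without the trend and with edgeR, and 0 to 1 without single libraries. The directions of Myl7, Myl4, Myh6, Actc1, Tnnt2, Tnni3, Tnnc1 and Sln were kept under every alternative run.

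Replicate numbers did not pair the libraries (correlations of same-numbered libraries −0.063 to 0.014). The fit with a replicate block on replicates 1 to 5 gave 33 lower and 29 higher calls, and the same libraries without the block 21 and 19. Under the block Nppa was 0.54, Jph2 0.086, Smtn 0.049 and S100a8 0.081 (log2), and Jph2, Smtn and S100a8 were the same without it. S100a8 was 0.067 with edgeR and 0.058 with DESeq2, and Ghitm −0.0019 with equal totals. Without single libraries the ranges were −0.57 to 0.58 for Nppa, −0.24 to 0.17 for Jph2, −0.013 to 0.28 for Mef2a, −0.48 to 0.72 for Tnnt1, −0.31 to 0.08 for Smtn, −0.15 to 0.21 for Mylk, −0.19 to 0.2 for S100a8 and −0.002 to 0.069 for Ghitm. The difference in read totals was 824162 to 1646376 reads, with exact permutation p = 0.0328 without APOE2 replicate 6. The cause of these changes was not tested. Depth limits Tnnc1, Sln and Nppa, which had no more than 36 reads in any library.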
